A study of Mus musculus with 12 samples.

Results

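The genotype difference in activated B cells was measured on 6 arrays of the 12 in the series. RNA came from splenic B cells stimulated in culture for 2 days, with 20 µg/ml of LPS plus 10 ng/ml of IL-4. The cells of 3 arrays came from mice of genotype EFLmDREAM, called transgenic here, and those of the other 3 from mice of genotype Wild Type. The other 6 arrays hold the same genotypes before stimulation. All 12 samples are B cells enriched by CD43 microbead depletion, with a stated purity above 98%, so the sort and the purity apply to every group. The labels call the replicates biological and independent. The sources used here do not give the strain, age or sex of the mice, the promoter of the transgene, the founder lines or any pooling of animals. All 45037 probe sets that are not array controls were members of the comparison, with no filter on dim ones, and 18193 genes had a probe set of their own.

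DREAM is the protein of Kcnip3, a calcium sensor of the KChIP family that binds to a short DNA element, the DRE, as a repressor and leaves it when calcium rises. LPS activates B cells through TLR4, and together with IL-4 it drives them to divide, to switch antibody class and in part to become antibody-secreting cells. That last step needs Prdm1 (Blimp-1) and Xbp1, and it enlarges the endoplasmic reticulum with its folding enzymes. B cells also answer LPS with interferon-induced genes, which are read through a promoter element called the ISRE.

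The promoters shown here belong to interferon-related genes, some lower and some higher in transgenic cells, that carried several of the widest genotype differences. They were picked among genes with an ISRE match. By the shares given below, a match was about as frequent among genes called lower as among all genes. No match was found for Ifi202b or Ifi44l, both large rises. Each line gives the 250 bases before the start of the gene in RefSeq's GRCm38.p6, 5′ to 3′ in the direction of the gene, with the match to the ISRE, searched as GAAA, any 2 bases and GAAA again, on either strand in capitals.
Mndal, lower, minus strand, chr1:173880188-173880437: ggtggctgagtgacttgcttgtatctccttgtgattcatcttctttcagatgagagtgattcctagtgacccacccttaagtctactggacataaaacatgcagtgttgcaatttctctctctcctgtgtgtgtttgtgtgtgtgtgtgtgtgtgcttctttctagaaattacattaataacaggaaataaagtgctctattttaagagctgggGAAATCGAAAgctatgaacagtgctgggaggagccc
Ifi207, higher, minus strand, chr1:173741810-173742059: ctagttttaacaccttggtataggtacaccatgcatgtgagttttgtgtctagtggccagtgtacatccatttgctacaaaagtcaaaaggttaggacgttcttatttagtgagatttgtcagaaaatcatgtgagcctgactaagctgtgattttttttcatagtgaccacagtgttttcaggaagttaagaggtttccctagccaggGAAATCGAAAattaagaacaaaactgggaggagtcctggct
Gbp2, lower, plus strand, chr3:142620413-142620662: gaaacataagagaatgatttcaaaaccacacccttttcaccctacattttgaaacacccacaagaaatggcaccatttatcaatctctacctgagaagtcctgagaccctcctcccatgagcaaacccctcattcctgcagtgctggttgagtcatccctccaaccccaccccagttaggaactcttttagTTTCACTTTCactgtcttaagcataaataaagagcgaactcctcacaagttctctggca
Gbp2b, lower, plus strand, chr3:142594597-142594846: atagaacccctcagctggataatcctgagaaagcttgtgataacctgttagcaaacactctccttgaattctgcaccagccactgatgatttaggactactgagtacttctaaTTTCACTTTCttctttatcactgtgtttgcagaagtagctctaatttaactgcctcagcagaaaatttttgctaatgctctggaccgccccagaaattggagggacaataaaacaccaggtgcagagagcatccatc
Gbp7, lower, plus strand, chr3:142530086-142530335: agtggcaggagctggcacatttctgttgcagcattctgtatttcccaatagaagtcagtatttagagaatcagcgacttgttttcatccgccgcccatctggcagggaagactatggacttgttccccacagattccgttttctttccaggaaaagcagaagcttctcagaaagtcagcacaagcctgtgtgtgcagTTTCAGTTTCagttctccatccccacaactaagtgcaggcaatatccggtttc
Trim30d, higher, minus strand, chr7:104507850-104508099: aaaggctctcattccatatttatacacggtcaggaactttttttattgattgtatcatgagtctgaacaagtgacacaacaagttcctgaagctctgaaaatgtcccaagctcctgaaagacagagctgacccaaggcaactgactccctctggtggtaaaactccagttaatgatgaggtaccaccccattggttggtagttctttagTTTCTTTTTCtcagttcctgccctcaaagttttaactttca
Rsad2, higher, minus strand, chr12:26456453-26456702: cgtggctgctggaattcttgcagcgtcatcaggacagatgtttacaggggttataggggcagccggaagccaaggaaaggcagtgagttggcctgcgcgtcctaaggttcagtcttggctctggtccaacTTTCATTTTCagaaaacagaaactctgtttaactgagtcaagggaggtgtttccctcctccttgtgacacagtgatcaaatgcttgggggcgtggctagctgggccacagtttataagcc
A window of 250 bases before to 50 after the start was found for 14452 of the 18193 genes. The ISRE letters, a motif chosen after the interferon genes had been seen, stood in the windows of 524 of these genes (3.63%). Among genes called higher in transgenic cells they stood in 25 of 171 windows (14.6%), and among genes called lower in 6 of 164 (3.66%). Of the 15 largest falls 5 of 14 had a match, and of the 15 largest rises 2 of 14. The DRE core with its flank, GTCAAGG, searched on both strands, stood in 10 of 171 windows of genes called higher (5.85%), in 6 of 164 of genes called lower (3.66%) and in 3.87% of all windows. None of the 15 largest rises or 15 largest falls had it in its window. Rsad2, Asb2 and H2-DMa, called genes named below, had it before their start, and in the Rsad2 line above it stands in lower case. The bare core GTCA, which lies within GTCAAGG, stood in 85.2% of all windows, in 82.5% of those of genes called higher and in 84.8% of those of genes called lower. A match is a run of letters in the window and not a bound site.

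Kcnip3 itself was level with wild type at both of its probe sets. At the brighter the wild type arrays read 6.67, 6.56 and 6.58 and the transgenic arrays 6.78, 6.53 and 6.59 on the log2 scale, so the groups overlapped. The difference was 0.03 ± 0.12 (SE from limma, n = 3 per group as in all that follows; adjusted p = 0.976). At the dimmer probe set it was 0.02 ± 0.10 (adjusted p = 0.98). No source used here says if the transgene is read by these probe sets, and the genotype labels are not checked by them. The paralogs Kcnip1, Kcnip2 and Kcnip4 were not called either, and the 4 family members lay between −0.04 and 0.03.

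Some arrays stood apart by sex-linked genes. In replicates 1 and 2 of the 4 groups Eif2s3y, a Y-linked gene, read 8.27 to 9.55, and in replicate 3 of each it read 3.33 to 3.78, and Kdm5d likewise 5.37 to 7.32 against 2.79 to 3.32. Xist, read in female cells, was bright on all 12 arrays (9.41 to 12.12). Since each genotype holds 1 array of the low kind, the split is balanced between the groups compared. Without the third array of all 4 groups, 327 probe sets were called in place of 839, and 295 of them were among the 839. Array medians of the stimulated arrays were 5.36 to 5.41, and correlations between arrays were 0.9928 to 0.9966 within wild type, 0.9941 to 0.9965 within transgenic and 0.9888 to 0.9935 between genotypes. The signal of the 5′ minus the 3′ control probe set of actin, a sign of RNA integrity, was −1.36 to −0.64 in wild type and −0.98 to −0.43 in transgenic arrays. For Gapdh it was −0.38 to −0.27 and −0.25 to −0.12, closer to 0 in every transgenic array. Among the unstimulated arrays, which enter the fit, wild type replicate 1 stood apart at −2.22 for actin (the other 5 at −0.67 to −0.54) and −1.78 for Gapdh (−0.38 to 0.02). Without it 1272 probe sets were called in activated cells, all 839 among them, with 2965 in unstimulated cells and 817 interactions. The part of RNA integrity in the results was not otherwise tested.

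The genotypes differed at a small share of probe sets. With an adjusted p under 0.05, 839 of 45037 probe sets were called (1.86%), 391 higher (0.868%) and 448 lower (0.995%) in transgenic cells. At least 2-fold were 155 of them (0.344%), 64 higher (0.142%) and 91 lower (0.202%). Read at 1 probe set per gene, the brightest over the 12 arrays, 425 of 18193 genes were called (2.34%), 225 higher (1.24%) and 200 lower (1.1%). The counts of called genes in each list below are to be read beside these shares. Most changes were modest, with a median of 0.65 on the log2 scale among genes called higher and −0.58 among those called lower. Between 1 and 2 lay 31 rises and 24 falls, and beyond 2 only 5 rises and 7 falls. Over all genes the median difference was 0 and the range from the 5th to the 95th percentile −0.26 to 0.26. The wild type and transgenic arrays did not overlap for 4002 genes (22%), many more than were called. Bright probe sets were called more often: 3.27% of those above the median probe set (5.39) against 0.457% below it. The calls depended on the number of arrays. Without 1 stimulated array at a time they fell to 551, 509 and 452 without wild type replicate 1, 2 or 3 and to 555, 488 and 597 without transgenic replicate 1, 2 or 3, and 370 probe sets (158 higher, 212 lower) kept their call without each of the 12 arrays.

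**Figure D1:**
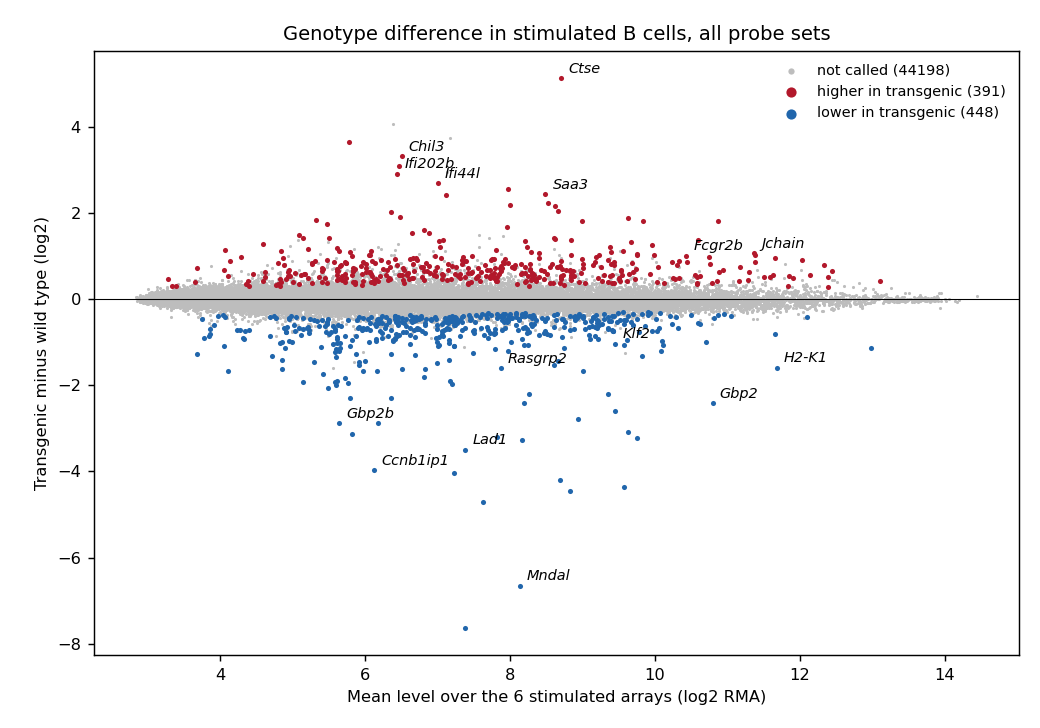
Difference between transgenic and wild type stimulated arrays (log2, vertical axis) against the mean level over the 6 stimulated arrays (log2 RMA, horizontal axis), with 1 point per probe set. The 391 probe sets called higher are red and the 448 called lower blue; Ctse lies at the top with 5.12 and Mndal far below 0 with −6.66.

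Ctse, which encodes the endosomal aspartic protease cathepsin E, rose most. Its wild type arrays read 6.10, 6.18 and 6.16 and its transgenic arrays 11.38, 11.27 and 11.16. The gap between the groups dwarfed the spread within them, with a difference of 5.12 ± 0.09 (adjusted p = 4.45e-12), or 34.9-fold. Its other probe set stood higher by far less and was not called. Wild type read 9.97, 10.09 and 10.01 and transgenic 10.38, 10.27 and 10.34, without overlap. The SD was 0.06 in each group. The difference was 0.31 ± 0.41 (adjusted p = 0.90), with an SE that the fit pools over the unstimulated arrays too. Cathepsin E was thus called higher at 1 of 2 probe sets in activated cells. Before stimulation this other probe set was called higher (1.42 ± 0.41, adjusted p = 0.0487). Of the other 14 cathepsin genes measured, Ctsl (0.71 ± 0.13, adjusted p = 0.0147) and Ctsd (0.43 ± 0.09, adjusted p = 0.0243) were called, both higher. Ctsl lost its call without wild type replicate 1 or 3 or transgenic replicate 1 or 2 (0.61 to 0.71), and Ctsd without any 1 stimulated array but transgenic replicate 1 (0.38 to 0.47).

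The 15 largest rises included Ifi202b, Ifi44l and Trim30d. Ifi202b, a DNA-binding protein of the IFI200 family, read 4.97, 5.06 and 4.94 in wild type and 7.85, 8.07 and 7.78 in transgenic cells. The wild type level lay below the median probe set and the difference was 2.91 ± 0.13 (adjusted p = 5.23e-08), 7.52-fold. Ifi44l, an interferon-induced gene, read 5.59, 5.95 and 5.43 against 8.31, 8.65 and 8.09, with all transgenic arrays above all wild type arrays. Its difference was 2.69 ± 0.20 (adjusted p = 7.92e-06), and its 3 probe sets were all called higher. Trim30d, of the TRIM30 group of ubiquitin ligase-like proteins, read 7.96, 7.99 and 7.80 against 9.35, 9.34 and 9.26, a narrow spread on each side of a difference of 1.40 ± 0.11 (adjusted p = 1.14e-05). The second Trim30d probe set rose by 1.21 ± 0.23 (adjusted p = 0.0174).

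A further set of rises comprised genes known from monocytes, macrophages and granulocytes. Chil3, a secreted chitinase-like protein of macrophages, read 5.07, 5.24 and 4.22 in wild type and 7.63, 8.65 and 8.22 in transgenic cells. It was the second widest rise, 3.32 ± 0.39 (adjusted p = 4.82e-04), or 10-fold. Saa3, an acute-phase serum amyloid A, read 7.20, 7.59 and 7.03 against 9.33, 10.40 and 9.38, with transgenic replicate 2 well above the other 2 (2.43 ± 0.23, adjusted p = 7.88e-05). Chil1, a second chitinase-like protein, read 5.84, 5.19 and 5.53 against 7.26, 7.75 and 7.30 (1.92 ± 0.19, adjusted p = 1.05e-04). Serpinb2, an inhibitor of plasminogen activators, read 4.32, 4.82 and 4.08 against 5.70, 6.93 and 6.12 (1.84 ± 0.27, adjusted p = 0.00252). Lysozyme Lyz1 read 8.35, 8.63 and 7.30 against 9.53, 10.53 and 9.65 (1.81 ± 0.31, adjusted p = 0.00717). Wild type replicate 3 was lowest here and transgenic replicate 2 highest. Lyz1 and its paralog Lyz2 are nearly identical, so their probe sets may not tell them apart.

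S100a8, a calcium-binding protein abundant in neutrophils, read 4.42, 4.66 and 4.74 against 6.08, 6.26 and 6.70 (1.74 ± 0.18, adjusted p = 1.78e-04). Its wild type arrays all lay below the median probe set. The lectin receptor Clec4e read 5.90, 6.65 and 5.50 against 7.25, 8.03 and 7.59 (1.61 ± 0.33, adjusted p = 0.0254), with a wide spread in each group. Its call was lost without wild type replicate 1 or 3 or transgenic replicate 2 or 3 (1.35 to 1.62). Fpr2, a formyl peptide receptor, read 5.94, 6.26 and 5.44 against 7.13, 8.02 and 7.09 (1.53 ± 0.31, adjusted p = 0.0246), and lost its call without wild type replicate 1 or 3 or transgenic replicate 2 (1.23 to 1.56). Pf4, a chemokine of platelets and macrophages, read 6.42, 6.50 and 6.24 against 7.45, 8.28 and 7.53 (1.37 ± 0.18, adjusted p = 0.00108). The scavenger receptor Marco read 6.25, 6.52 and 6.26 against 7.35, 8.11 and 7.62 (1.35 ± 0.16, adjusted p = 3.97e-04), and its second probe set rose too. The amyloid precursor App stands outside this set: it read 6.02, 6.07 and 6.25 against 7.64, 7.97 and 7.33 (1.53 ± 0.19, adjusted p = 6.27e-04). No other of its 4 probe sets was called, the second brightest giving 0.76 ± 0.20 (adjusted p = 0.0916). In Chil3, Saa3, Chil1, Serpinb2, Lyz1, Clec4e, Fpr2, Pf4 and Marco the highest array was transgenic replicate 2. This was not particular to the set: it held for App, Ifi202b and Ifi44l too, while S100a8 was highest in transgenic replicate 3.

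**Figure D2:**
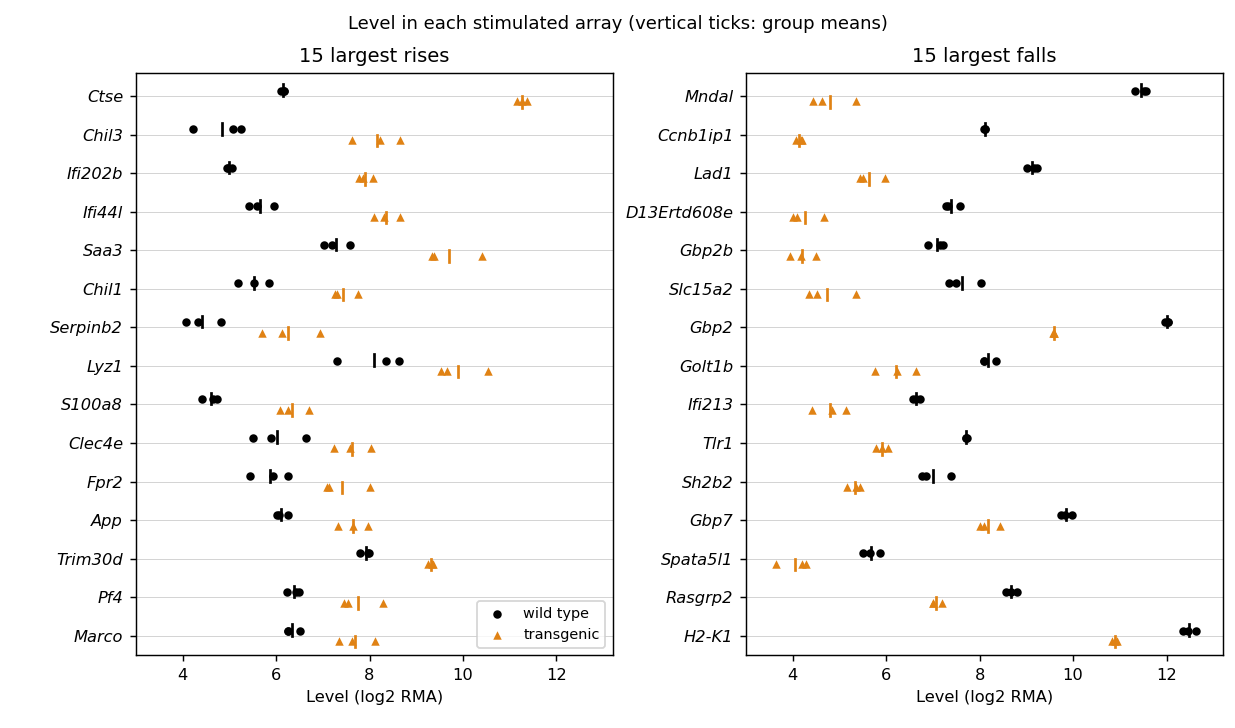
Level of the 15 largest rises (left) and 15 largest falls (right) in each of the 6 stimulated arrays (log2 RMA, horizontal axis), with black circles for wild type, orange triangles for transgenic and vertical ticks for group means. The groups do not overlap for any of these genes, which the choice of genes requires; Chil3 and Lyz1 spread widely within a group, while Gbp2 reads 9.57 to 9.60 on the 3 transgenic arrays.

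Mndal, a second IFI200 family member, fell most of all genes. Wild type arrays read 11.51, 11.55 and 11.33, among the bright signals of the array, and transgenic arrays 4.44, 5.36 and 4.62, below the median probe set. The difference was −6.66 ± 0.19 (adjusted p = 3.57e-10), 101-fold lower, and the other probe set gave −7.63 ± 0.14 (adjusted p = 6.27e-12). Ifi213, of the same family, read 6.57, 6.73 and 6.63 against 4.84, 5.15 and 4.42 (−1.84 ± 0.20, adjusted p = 2.35e-04). Of the 8 IFI200 genes measured, 2 were called higher and 2 lower at their brightest probe set. Ifi209 fell by 2.42 at its dimmer probe set and stood at 0.42, not called, at its brighter. The second call higher was Ifi207, dim at 3.90, 3.68 and 3.49 against 4.65, 4.37 and 4.72 (0.89 ± 0.18, adjusted p = 0.0205). Its call was lost without wild type replicate 2 or 3 or transgenic replicate 1 or 3 (0.79 to 0.89).

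Of the 15 largest falls 3 were guanylate-binding proteins, interferon-induced GTPases of cell-autonomous defence. Gbp2 read 12.03, 11.97 and 12.03 in wild type and 9.57, 9.60 and 9.59 in transgenic cells, among the narrowest spreads of the falls (−2.42 ± 0.11, adjusted p = 5.23e-08). Its second probe set fell by 2.60 (SE 0.13, adjusted p = 8e-08). Gbp2b read 6.89, 7.15 and 7.22 against 3.94, 4.49 and 4.17 (−2.89 ± 0.12, adjusted p = 2.73e-08), so that the transgenic level lay below the median probe set. Gbp7 read 9.98, 9.83 and 9.75 against 8.09, 8.0 and 8.43 (−1.68 ± 0.14, adjusted p = 2.34e-05), while its second probe set gave −1.11 ± 0.35 and was not called (adjusted p = 0.175). The other 3 family members measured, Gbp3 (0.12), Gbp6 (0.66) and Gbp8 (−0.42), were not called.

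Several other falls took a gene from a clear signal to the dim end of the array. Ccnb1ip1, a ubiquitin ligase needed for meiotic crossing-over, read 8.09, 8.12 and 8.12 against 4.06, 4.19 and 4.18 (−3.97 ± 0.09, adjusted p = 4.77e-11). Lad1, the anchoring filament protein ladinin, read 9.16, 9.22 and 9.01 against 5.50, 5.97 and 5.44 (−3.49 ± 0.15, adjusted p = 1.96e-08). Both were measured by 1 probe set. D13Ertd608e, a transcribed locus, read 7.57, 7.28 and 7.32 against 4.10, 4.68 and 4.00 (−3.13 ± 0.18, adjusted p = 4.26e-07). The peptide transporter Slc15a2 read 7.50, 7.34 and 8.03 against 4.53, 5.35 and 4.35 (−2.88 ± 0.27, adjusted p = 6.28e-05). Its other 2 probe sets were dim in both genotypes and not called (−0.15 and 0.14). Spata5l1, an AAA-type ATPase, read 5.86, 5.51 and 5.65 against 4.19, 4.28 and 3.65 (−1.63 ± 0.19, adjusted p = 4.24e-04).

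Tlr1, the partner of TLR2 in sensing bacterial lipopeptides, read 7.72, 7.71 and 7.71 against 5.92, 6.04 and 5.78 (−1.80 ± 0.10, adjusted p = 3.52e-07). Golt1b, a Golgi transport protein, read 8.09, 8.09 and 8.36 against 5.77, 6.24 and 6.63 (−1.97 ± 0.18, adjusted p = 4.89e-05), and the adaptor Sh2b2 read 7.39, 6.86 and 6.76 against 5.44, 5.17 and 5.36 (−1.68 ± 0.14, adjusted p = 1.86e-05). The second probe set of Golt1b gave −0.52 and that of Sh2b2 −0.24, neither of them called. Rasgrp2, an activator of Rap1 that responds to calcium and diacylglycerol, read 8.80, 8.67 and 8.56 against 7.20, 7.0 and 7.0 (−1.61 ± 0.10, adjusted p = 1.37e-06). Of its 4 probe sets 2 were called lower and the others gave −0.46 and −0.40. H2-K1, a class I MHC heavy chain, read 12.36, 12.45 and 12.63 against 10.83, 10.89 and 10.94 at its brightest probe set (−1.59 ± 0.10, adjusted p = 1.1e-06).

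Genes of the plasma cell programme were called in 1 direction. Of 22 measured, 9 rose and none fell, with a median of 0.27 over the list beside 0 over all genes. Of all genes 1.24% were called higher. Before stimulation 11 of the 22 were already called higher and none lower, beside 5.45% and 4.9% of all genes. Jchain, the linker of polymeric IgM and IgA, read 10.99, 10.99 and 10.53 against 11.76, 12.02 and 11.94 (1.07 ± 0.12, adjusted p = 3.55e-04). Prdm1, the regulator of the secretory fate, read 7.92, 7.91 and 7.76 against 8.81, 8.69 and 8.55 (0.82 ± 0.15, adjusted p = 0.0117). Every transgenic array lay above every wild type array in both genes. Eaf2, an elongation factor partner, rose by 0.91 and the disulfide isomerase Txndc5 by 0.85. The definers Xbp1 (0.15), Irf4 (0.03) and Sdc1, or CD138 (0.00), were not called. The call of Prdm1 was lost without wild type replicate 3 or transgenic replicate 1 or 2 (0.76 to 0.82), and the list kept 4 calls without transgenic replicate 1 and 5 without transgenic replicate 2 or wild type replicate 2 or 3. More cells of a secretory type and more RNA of these genes per cell cannot be told apart in bulk samples.

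The unfolded protein response and the folding machinery of the endoplasmic reticulum gave a like picture, with 7 of 33 genes higher, none lower and a median of 0.19. Before stimulation 14 of the 33 were called higher and 1 lower. Atf3 (0.65 ± 0.11, adjusted p = 0.00646) and Edem1 (0.63 ± 0.09, adjusted p = 0.00302), which hands misfolded glycoproteins to degradation, rose most. Edem1 read 10.59, 10.64 and 10.49 against 11.29, 11.20 and 11.11. Derl3, another degradation factor, rose by 0.55 ± 0.09 (adjusted p = 0.00424), and Edem2 and Derl3 stand in the plasma cell list too. The sensor Atf6 rose by 0.57 ± 0.13 (adjusted p = 0.0454), a call lost in 8 of 12 fits without 1 array, among them each of the 6 stimulated ones (0.46 to 0.65), and its other 2 probe sets gave 0.04 and 0.27. The chaperone Hspa5, or BiP, was at 0.05 and Calr at 0.02, neither called. The list kept 3 calls without wild type replicate 2 or transgenic replicate 1 or 2, and 4 without wild type replicate 1 or 3 or after subtraction of each array's median. Immunoglobulin constant genes were thinly covered: of 4 genes measured, Jchain among them, only Jchain was called at its brightest probe set. Over all 19 probe sets of that list 2 were called higher.

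Of 23 genes of the type I interferon response, 4 rose and 1 fell, with a median of 0.35, and in 14 the transgenic arrays lay above all wild type arrays (9.76% of all genes). Rsad2, or viperin, read 6.84, 7.0 and 6.77 against 7.83, 8.11 and 7.59 (0.97 ± 0.15, adjusted p = 0.00416), and all 3 of its probe sets rose. Isg20, an exonuclease, read 10.31, 10.51 and 10.25 against 11.21, 11.22 and 11.09 (0.82 ± 0.11, adjusted p = 0.00118). Usp18, which removes the ISG15 tag, read 8.35, 9.14 and 8.74 against 9.51, 9.86 and 9.43 (0.86 ± 0.19, adjusted p = 0.0426). That call was lost with the replicate number as a block (adjusted p = 0.058) and in 9 of 12 fits without 1 array, all but those without wild type stimulated replicate 2, wild type unstimulated replicate 1 and transgenic unstimulated replicate 2 (0.66 to 0.94). The fourth rise was Bst2, or tetherin (0.67), and the fall was Gbp2. Mx1 at 0.81, Stat2 at 0.53 and Irf7 at 0.41 were not called. The list kept 3 calls without wild type replicate 1 or 3.

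**Figure D3:**
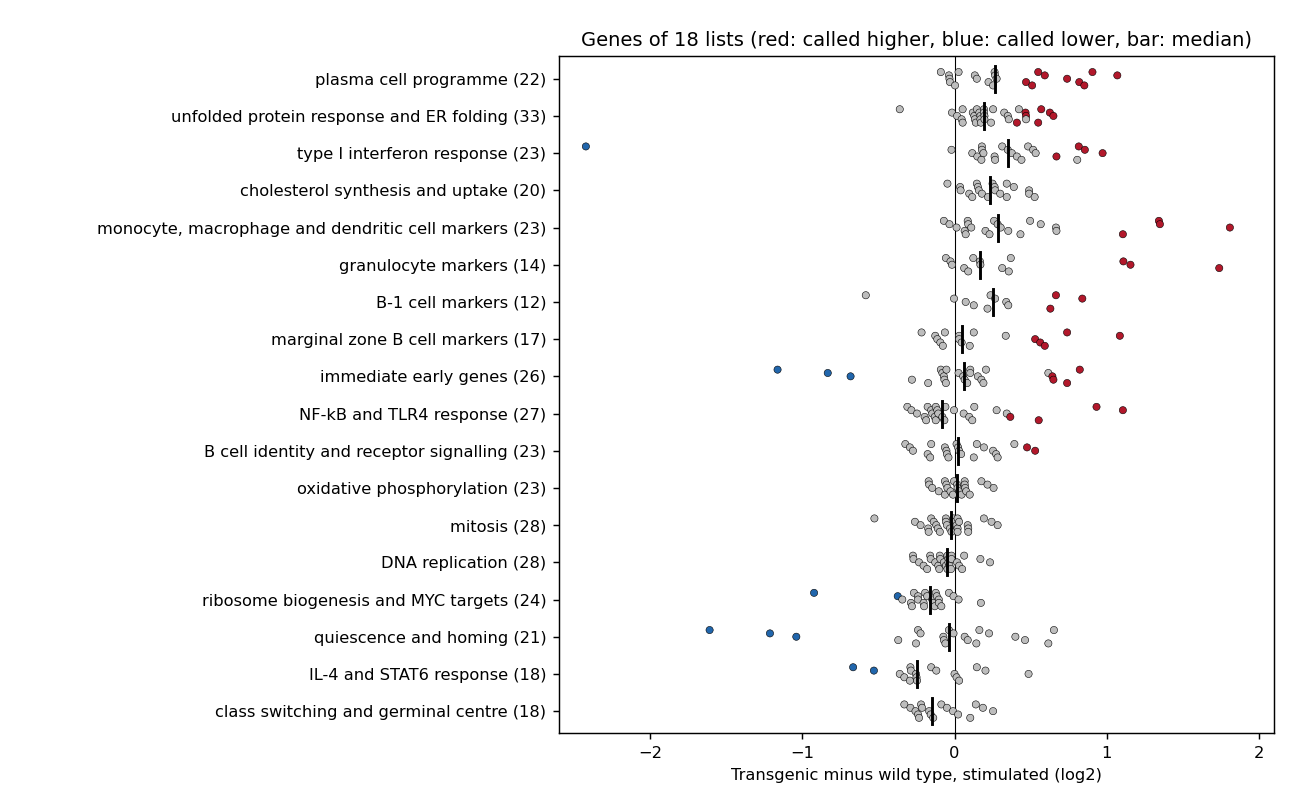
Difference between transgenic and wild type stimulated arrays (log2, horizontal axis) of each gene in 18 lists, with the number of measured genes in parentheses, red for genes called higher, blue for genes called lower, grey for the rest and a bar for the list's median. The plasma cell list has 9 red points and no blue one, and the interferon list has its median at 0.35 with Gbp2 alone far to the left.

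Immediate early genes, the first to answer receptor signals, were split. Of 26 measured, 4 rose and 3 fell, beside 1.24% and 1.1% of all genes. The phosphatase Dusp1 rose, from 7.05, 6.85 and 6.90 to 7.78, 7.98 and 7.51 (0.82 ± 0.11, adjusted p = 0.00108), and Dusp2 fell, from 8.37, 8.44 and 8.32 to 7.19, 7.35 and 7.10 (−1.16 ± 0.09, adjusted p = 1.36e-05). Egr3 fell by 0.83 (SE 0.12, adjusted p = 0.00314) at 1 probe set and stood at 0.00 at the other. Fos, a known target of DREAM, rose by 0.74 ± 0.16 (adjusted p = 0.032). Its arrays read 6.78, 6.66 and 6.41 against 7.65, 7.53 and 6.89, and the call was lost without wild type replicate 2 or 3, transgenic replicate 1 or 2, wild type unstimulated replicate 2 or transgenic unstimulated replicate 1 or 3 (0.59 to 0.76). Of the 26 candidate DREAM targets measured, Fos, Atf6 and Tg rose and Klf2 fell (1.24% and 1.1% of all genes), with a median of 0.05. That count of 4 was 1 without wild type replicate 2 or transgenic replicate 1. It was 2 without wild type replicate 3, transgenic replicate 2, wild type unstimulated replicate 2 or transgenic unstimulated replicate 1.

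Genes of quiescence and homing included some of the clearest falls, 3 of 21 measured, with none called higher and a median of −0.04. At an unadjusted p under 0.05 the list was split, with 4 higher and 5 lower. Klf2, which keeps lymphocytes quiescent and sets their homing receptors, read 9.95, 9.96 and 10.02 against 9.03, 8.83 and 8.95 (−1.04 ± 0.08, adjusted p = 7.81e-06). Klf3 read 8.65, 8.58 and 8.52 against 7.33, 7.25 and 7.53 (−1.21 ± 0.10, adjusted p = 2.88e-05) at its brightest probe set, while the other 6 lay between −0.37 and 0.05, none called. Rasgrp2 was the third. In the KLF and SP family 3 of 22 fell, the last being Klf16 (−0.39 ± 0.08, adjusted p = 0.0296), whose call was lost without any 1 stimulated array (−0.42 to −0.36).

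Calls among genes that answer the stimulus are read against 2.34% of all genes called. Of 18 IL-4 and STAT6 response genes, 2 fell and none rose, with a median of −0.25 and 8 lower and 1 higher at an unadjusted p under 0.05: the chemokine Ccl22 (9.64, 9.85 and 9.59 against 8.90, 8.82 and 9.36; −0.67 ± 0.12, adjusted p = 0.0132) and the signalling inhibitor Socs2 (−0.53 ± 0.11, adjusted p = 0.0253). Ccl22 lost its call without wild type replicate 2 or transgenic replicate 1 or 2 (−0.60 to −0.56), Socs2 without wild type replicate 1 or 3 or transgenic replicate 2 or 3 (−0.50 to −0.45), and none was left without transgenic replicate 2. Socs2 was called at only 1 of its 6 probe sets, of which the highest stood at 0.00. Of 27 NF-kB and TLR4 response genes 4 rose and none fell, with a median of −0.08. They were Cd14 (1.11 ± 0.20, adjusted p = 0.0112), the LPS co-receptor and a monocyte marker, the chemokine genes Ccl3 (0.93 ± 0.12, adjusted p = 0.00107) and Ccl4 (0.55 ± 0.10, adjusted p = 0.00903), and the inhibitory kinase Irak3 (0.37 ± 0.08, adjusted p = 0.0296). Cd14 lost its call without wild type replicate 3 (1.07), Ccl4 without wild type replicate 2 (0.52), and Irak3 without any 1 stimulated array but transgenic replicate 3 (0.33 to 0.40), so that the list kept 2 calls without wild type replicate 2 or 3. Core NF-kB genes such as Nfkbia (0.00), Rela (−0.18) and Tnfaip3 (−0.28) were not called. At the brightest probe set no call was made among 18 genes of the class switching and germinal centre list, whose median was −0.15. Of its 39 probe sets 2 were called lower.

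At the brightest probe set none of 28 mitosis genes and none of 28 DNA replication genes was called, with medians of −0.02 and −0.05. Nor was any of 18 cyclin and CDK inhibitor genes. Over all probe sets, 1 of the mitosis list and 1 of the cyclin list were called lower. At an unadjusted p under 0.05 stood 5 mitosis genes, 1 replication gene and 5 of the cyclin list. Of 24 genes of ribosome biogenesis and MYC targets 2 fell, with a median of −0.16. At an unadjusted p under 0.05 stood 10 lower and none higher, and in 11 the transgenic arrays lay below all wild type arrays (12.2% of all genes). The called ones were Polr1b, a subunit of RNA polymerase I (9.54, 9.58 and 9.57 against 8.72, 8.75 and 8.45; −0.92 ± 0.09, adjusted p = 6.7e-05), and Wdr12, whose call was lost in 9 of 12 fits without 1 array (−0.42 to −0.34), all but those without a wild type unstimulated array. Myc was at −0.28 and not called. At the brightest probe set none of 20 cholesterol synthesis genes was called, although 11 stood at an unadjusted p under 0.05, all higher. The median was 0.24, and 1 gene was called with the replicate number as a block. Of the 44 probe sets of that list 3 were called higher. At the brightest probe set no call was made among 18 glycolysis, 23 oxidative phosphorylation, 23 calcium signalling or 22 apoptosis genes. There 2, 3, 2 and 4 stood at an unadjusted p under 0.05, and 1 glycolysis gene was called with the block. Over all probe sets 1 of the glycolysis and 2 of the calcium list were called lower and 2 of the apoptosis list higher.

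Markers of B cell subsets held 9 calls higher and 1 lower over 3 lists. Before stimulation 12 of 17 marginal zone and 8 of 12 B-1 cell markers were called higher and none lower. Of 10 follicular markers 3 were called higher there and 1 lower (5.45% and 4.9% of all genes). In activated cells 5 of the 17 marginal zone markers rose and none fell, with a median of 0.05. Cd36, a scavenger receptor, read 8.94, 8.88 and 8.73 against 9.84, 9.93 and 10.04 (1.09 ± 0.13, adjusted p = 4.57e-04), and all 3 of its probe sets rose. Asb2 rose by 0.59 ± 0.10 (adjusted p = 0.00888) and the complement receptor Cr2 by 0.53 ± 0.07 (adjusted p = 0.00138). The tetraspanin Cd9 (0.74 ± 0.15, adjusted p = 0.0201) and Plac8 (0.56 ± 0.10, adjusted p = 0.0132) lost their calls, Cd9 without wild type replicate 1 or 2 or transgenic replicate 1 or 3 (0.60 to 0.74), Plac8 without wild type replicate 1 or 3 or transgenic replicate 2 or 3 (0.48 to 0.54). The list kept 3 calls without wild type replicate 1 or transgenic replicate 3. Of 12 B-1 cell markers 3 rose, with a median of 0.25, led by the lectin Lgals1 (9.34, 9.23 and 9.23 against 10.06, 10.07 and 10.19; 0.84 ± 0.09, adjusted p = 1.71e-04). The other 2 were the phosphatase Ptpn22 (0.67 ± 0.12, adjusted p = 0.00903), whose call was lost without wild type replicate 3 (0.61), and Anxa2 (0.63 ± 0.13, adjusted p = 0.0233), lost without any 1 stimulated array but wild type replicate 1 (0.55 to 0.65). Of 10 follicular markers, Ly6d rose (1.02 ± 0.15, adjusted p = 0.00235) and Klf2 fell, with a median of −0.20, and at an unadjusted p under 0.05 stood 3 higher and 5 lower.

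The B cell markers Ms4a1, Cd79a, Cd79b, Cd22, Pax5, Ebf1 and Blnk read 7.12 to 12.35 in wild type and 7.37 to 12.36 in transgenic arrays, all above the median probe set and none called. The wider list of identity and receptor signalling had 2 of 23 genes higher, Cr2 and Fcrla. Fcrla rose by 0.48 ± 0.10 (adjusted p = 0.0265), and lost its call without wild type replicate 3 or transgenic replicate 1 or 2 (0.37 to 0.45). Over the 23 genes the summed linear level was 49032 to 51910 in wild type and 48953 to 51201 in transgenic arrays.

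Markers of other cells moved with the genotype in part. The summed linear level of 23 monocyte, macrophage and dendritic markers was 1489 to 1955 in wild type and 2656 to 4072 in transgenic arrays, without overlap. Of these markers 4 rose (Lyz1, Marco, Lyz2 and Cd14) and none fell, with a median of 0.28, and Lyz2 read 7.53, 7.82 and 7.26 against 8.46, 9.42 and 8.76. Lyz2 lost its call without wild type replicate 3 (1.21), which left the list 2 calls. In 12 of the 23 the transgenic arrays lay above all wild type arrays (9.76% of all genes), among them, not called, Csf1r (5.79 to 6.10 against 6.28 to 6.79), Adgre1 (6.23 to 6.33 against 6.58 to 7.20), Cd68 (0.43) and Fcgr3 (0.67). The markers C1qa, C1qb, C1qc, Mrc1, Spic, Cd163, Itgam and Itgax lay below the median probe set in both genotypes. The 14 granulocyte markers summed to 423 to 441 in wild type and 547 to 634 in transgenic arrays, and S100a8, S100a9 (1.16 ± 0.19, adjusted p = 0.00622) and Lcn2 (1.11 ± 0.25, adjusted p = 0.0393) rose. Lcn2 lost its call without any 1 stimulated array but transgenic replicate 1, and without transgenic unstimulated replicate 3 (1.01 to 1.24). The 9 platelet markers summed to 499 to 505 and 676 to 782, with Pf4 the only one called. The 17 T and NK cell markers overlapped (1581 to 1724 and 1551 to 1747), with Ccl5 alone called (1.13 ± 0.12, adjusted p = 2.12e-04). With the replicate number as a block, or without transgenic replicate 2, 3 of the 17 were called, and without any 1 wild type unstimulated array 2 were. Neither the 10 erythroid (2710 to 3067 and 2670 to 2741) nor the 15 stromal markers (688 to 711 and 702 to 760) had a call. The erythroid sum rests largely on Tfrc (11.26 to 11.46 and 11.24 to 11.28). Of the 10 erythroid markers 7 lay below the median probe set in wild type and 8 in transgenic cells. Before stimulation 18 of the 23 monocyte, macrophage and dendritic markers and 13 of the 14 granulocyte markers were called higher, none lower. Of the 17 T and NK cell markers 6 were called higher there, and of the 10 erythroid ones 7 higher and 1 lower. The part of these cells in the rises of Chil3, Saa3, Chil1, Serpinb2, Clec4e and Fpr2 was not tested.

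Probe sets of a gene agreed in direction more often than in their call. Of 9010 genes with 2 or more probe sets of their own, 424 had at least 1 called. All probe sets were called in the same direction in 28 of these (6.6%), some were called and the rest had the same sign in 226 (53.3%), another lay at 0 or on the opposite side in 165 (38.9%), and 5 had calls in both directions (1.18%). Of 77 genes with 2 or more called probe sets, 72 had them in 1 direction. Exactly 1 probe set was called in 347 genes. With only probe sets above the median probe set, 323 genes had a call and the share called throughout in 1 direction was 11.1%.

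In the 391 genes with some probe sets called and some not, and no calls in both directions, the called ones had a median of 0.62 and the others of 0.11 in the called direction, and 591 of 816 uncalled ones (72.4%) had its sign. The brightest probe set was the called one, or among them, in 201 genes (51.4%). Where the brightest of a gene was called and the second also lay above the median probe set, the second had the same sign in 138 of 169 genes (81.7%), beside 64% of 4680 genes whose brightest was not called. The second was itself called the same way in 49 of the 169 and the opposite way in 4. The probe sets of a gene share the arrays and the RNA, and with them its deviations.

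Agreement was close for Fcgr2b, the inhibitory Fc receptor of B cells. Its brightest probe set read 10.03, 9.98 and 9.79 against 10.97, 11.02 and 10.82, a difference of 1.00 ± 0.08 (adjusted p = 1.88e-05), and 4 of 5 rose by 0.80 to 1.02, the fifth being dim (0.15). D16Ertd472e rose at 4 of 6 probe sets (0.52 to 0.81), its other 2 being dim. Tmcc3 rose at its 3 probe sets above the median (0.39 to 0.67), of which the brightest (0.39 ± 0.09, adjusted p = 0.0393) lost its call in 7 of 12 fits without 1 array, those without any 1 stimulated array but wild type replicate 2 and without replicate 2 of either unstimulated group (0.31 to 0.42). In the other direction, Kctd14, a BTB domain protein, fell at all 4 probe sets (−1.91 to −0.60) and Mllt3, a reader of acylated histones, at all 3 (−0.78 to −0.55), of which the one at −0.55 was not called with the replicate block (adjusted p = 0.0562). The brightest probe set of Kctd14 (−0.68 ± 0.14, adjusted p = 0.0279) lost its call without any 1 stimulated array but wild type replicate 3 (−0.71 to −0.59), and that of Mllt3 (−0.61 ± 0.11, adjusted p = 0.011) without wild type replicate 1 or 3 or transgenic replicate 3 (−0.60 to −0.55).

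**Figure D4:**
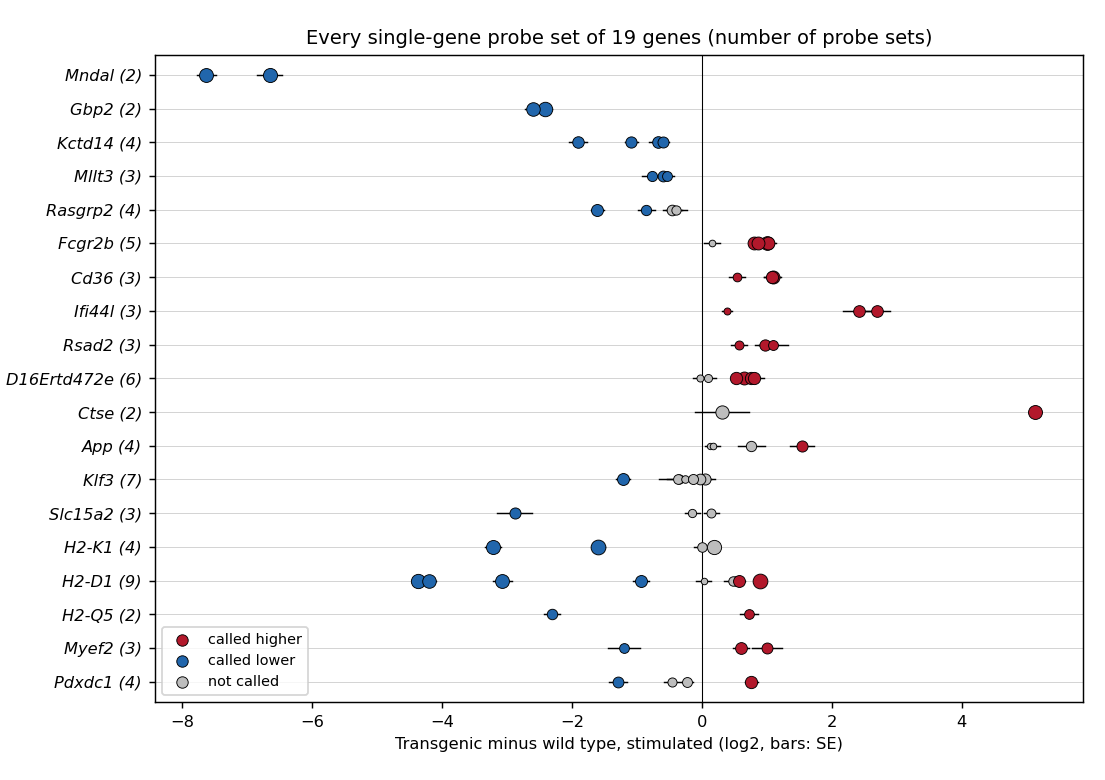
Difference between transgenic and wild type stimulated arrays with its standard error (log2, horizontal axis) for every probe set of 19 genes, with the number of probe sets in parentheses, red for called higher, blue for called lower, grey for not called, and larger points for brighter probe sets. Fcgr2b and Kctd14 lie on 1 side of 0, Ctse has 1 probe set at 5.12 and 1 at 0.31, and H2-D1 spans −4.37 to 0.90.

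Calls in both directions were widest in H2-D1, a class I MHC heavy chain, with 9 probe sets. Of these 3 were called higher (0.90, 0.58 and 0.53) and 4 lower (−0.93, −3.08, −4.21 and −4.37). At the brightest of them wild type arrays read 11.52, 11.64 and 11.60 and transgenic arrays 12.45, 12.50 and 12.50 (0.90 ± 0.07, adjusted p = 7.81e-06), while the probe set with the widest fall went from a mean of 11.76 to 7.40. H2-K1 had 2 of 4 lower (−1.59 and −3.21) and the others at 0.19 and −0.01. H2-Q5 rose at 1 probe set (0.72 ± 0.14, adjusted p = 0.015, lost without wild type replicate 2 or 3 or transgenic replicate 3 at 0.60 to 0.71) and fell at the other (−2.31 ± 0.12, adjusted p = 2.27e-07). Class I heavy chains are near-identical paralogs, and all but 2 of the H2-D1 probe sets and all of those of H2-K1 have names ending in _x_at, the array maker's mark for probes that may bind related transcripts, so a direction for a single class I gene is uncertain. Outside the MHC, Myef2 rose at 2 probe sets (0.59 and 1.00, the second not called with the replicate block, adjusted p = 0.0604) and fell at 1 (−1.20), and Pdxdc1 rose at 1 (0.76), fell at 1 (−1.29) and had 2 not called (−0.46 and −0.23). The brightest of Myef2 (adjusted p = 0.0261) lost its call without any 1 stimulated array (0.56 to 0.64). The fifth such gene, 1500011B03Rik, stood at 0.44 and −0.95.

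Other MHC genes had few calls at their brightest probe set. Of 15 class I presentation genes 2 rose and 1 fell, with a median of 0.10: H2-D1 and H2-T24, a non-classical heavy chain (7.01, 7.13 and 6.77 against 7.96, 8.29 and 7.66; 1.0 ± 0.17, adjusted p = 0.00717), and H2-K1. Of 12 class II genes 1 rose and 1 fell at the brightest probe set, with a median of −0.06. Over all 24 probe sets of that list 1 was called higher and 3 lower. H2-Aa, a class II chain gene, was called lower at 2 of its 4 probe sets, which spanned −4.05 to 0.13. The alpha chain gene H2-Ea rose by 0.74 ± 0.17 (adjusted p = 0.0452) and H2-DMa, a subunit of the peptide-loading factor, fell by 0.35 (SE 0.08, adjusted p = 0.0423). H2-Ea lost its call in 9 of 12 fits without 1 array, all but those without wild type unstimulated replicate 1 or 3 or transgenic stimulated replicate 1 (0.52 to 0.81). H2-DMa lost its call in 9, all but those without wild type unstimulated replicate 1 or 3 or transgenic unstimulated replicate 1 (−0.39 to −0.30).

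Called genes often lay near each other, a description for which no test was made. In the gene order of RefSeq's GRCm38.p6, 97 of 424 called genes (22.9%) had another called gene within 2 measured genes, beside 1448 of 17718 genes that were not called (8.17%). Neighbours that belong to 1 family can share probes, so these are descriptions of signals. There were 10 runs of 3 or more, holding 35 genes. In the run on the IFI200 cluster, Ifi213 (−1.84) and Mndal (−6.66) fell and Ifi207 (0.89) and Ifi202b (2.91) rose. The guanylate-binding run of Gbp7, Gbp2b and Gbp2 ended with Kyat3 (−0.53), an aminotransferase gene, which fell as well. The TRIM run rose throughout, with Trim34a at 1.25, Trim12a at 0.73, Trim12c at 0.38, Trim30a at 0.96 and Trim30d at 1.40. Chemokine genes made 2 runs, Taf15 (0.87) with Ccl5 (1.13) and Ccl9 (1.18), and Ccl3 (0.93) with Ccl4 (0.55), Wfdc17 (0.75) and Wfdc21 (0.36). Atf6, Fcrla and Fcgr2b formed a run of rises. In another, Il1a (0.62) and Il1b (0.96), which encode interleukin 1, rose beside Ckap2l (−0.44), a spindle protein. Riox2 (−0.49), Crybg3 (−0.49) and Nsun3 (−0.72) all fell. The last 2 runs were kappa light chain variable segments, all 6 higher by 0.42 to 1.13.

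The difference in activated cells was set beside that in unstimulated cells, which rests on other arrays of the same genotypes. By the sex-linked genes the replicate numbers go together across the states, although the titles name no pairing. The 2 differences may thus not be independent, and with the replicate number as a block 767 probe sets had a called interaction. In unstimulated cells 4256 probe sets were called (9.45%), and 1884 genes (10.4%), 992 higher (5.45%) and 892 lower (4.9%). Of the 225 genes higher in activated cells, 114 were called higher in unstimulated cells too, 50.7% of the first list and 11.5% of the second. Of the 200 lower genes, 81 were called lower in both, 40.5% and 9.08%. The opposite call was made for 2 and 8 genes. The difference between the differences was tested as an interaction, called for 710 probe sets (1.58%) and 360 genes (1.98%), and it was called for 28 of the 225 and 52 of the 200. The count of 710 was 446, 388 and 419 without wild type stimulated replicate 1, 2 or 3, 428 and 392 without transgenic stimulated replicate 1 or 2, 407 without transgenic unstimulated replicate 3 and 1418 without wild type unstimulated replicate 3. The unstimulated count of 4256 was 2611 and 2174 without transgenic unstimulated replicate 1 or 3 and 7518 without wild type unstimulated replicate 3.

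Mndal (−6.86 before stimulation), Ifi202b (2.81) and Chil3 (3.16) differed as much before as after, with no interaction called. Ccnb1ip1, Lad1 and Gbp2b differed in activated cells: before stimulation the differences were −0.25, 0.06 and 0.12, none called. Their interactions were −3.72 (adjusted p = 4.17e-08), −3.56 (adjusted p = 3.52e-06) and −3.01 (adjusted p = 3.52e-06). Before stimulation these genes were dim, with wild type and transgenic means of 4.91 and 4.66, 5.13 and 5.19, and 4.48 and 4.61. The array medians there were 5.97 to 6.05, so a lower level in transgenic cells could hardly have shown. Klf2 (−0.01 before, interaction −1.03, adjusted p = 4.64e-04), Rasgrp2 (−0.03 before, interaction −1.58, adjusted p = 1.28e-04) and Dusp2 (0.13 before, interaction −1.29, adjusted p = 2.97e-04) were also called after stimulation and not before, where they were bright (means of 9.17 to 13.12). Saa3 (0.52 before, interaction 1.91, adjusted p = 0.0118) and Fcgr2b (0.13 before, interaction 0.87, adjusted p = 0.00233) were rises of that kind. The reverse held for granulocyte genes: S100a9 stood 4.89 higher before and 1.16 after (interaction −3.73, adjusted p = 1.58e-05), and Ngp, Camp and Ltf, called higher before by 4.03, 3.36 and 3.23, were not called after. After stimulation Ngp, Camp and Ltf were dim in both genotypes, with means of 4.51 to 5.07, below the median probe set. Mdm1, Plk2, Crisp3 and Col6a4 fell by 2.63, 2.01, 2.26 and 1.94 before stimulation and were not called after. Plk2, Crisp3 and Col6a4 were dim in both genotypes after stimulation (means of 3.24 to 5.45). Fcrla changed sides at its brightest probe set, from −0.72 before to 0.48 after (interaction 1.19, adjusted p = 9.89e-04). A dimmer probe set did so too (−0.90 and 0.42, interaction 1.32, adjusted p = 2.25e-04). The third did not: it gave −0.03 before and 0.50 after, neither called, and its interaction was not called (0.53, adjusted p = 0.192).

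**Figure D5:**
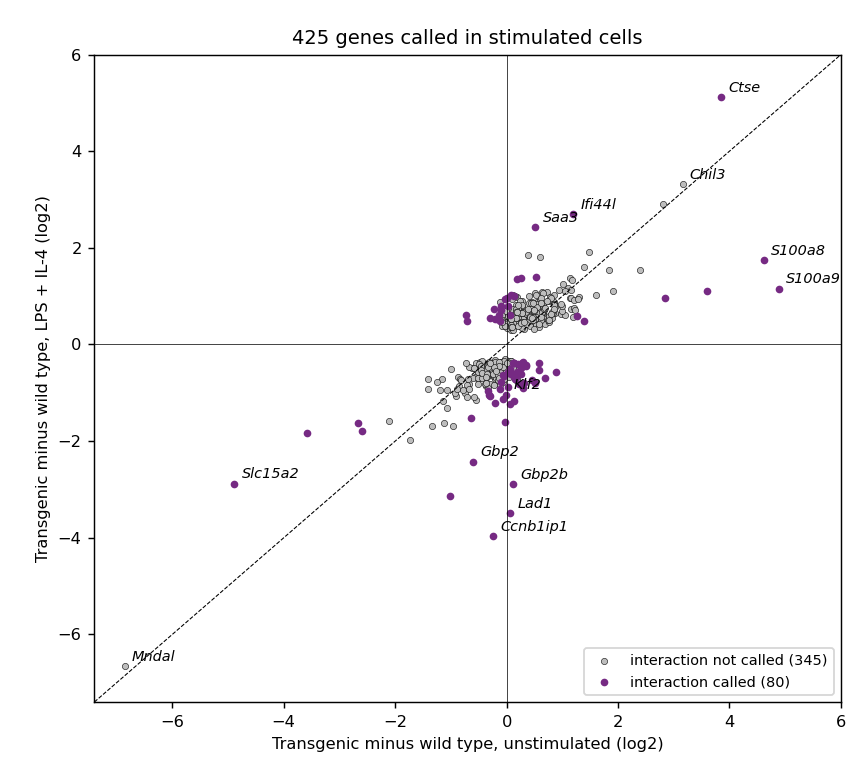
Difference between genotypes in stimulated cells (log2, vertical axis) against that in unstimulated cells (log2, horizontal axis) for the 425 genes called in stimulated cells, with purple points for the 80 with a called interaction and a dashed line of equality. Mndal and Chil3 lie near the line, while Ccnb1ip1, Lad1 and Gbp2b lie close to the vertical axis at −3.97, −3.49 and −2.89.

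Large differences that were not called numbered 32 probe sets at 2-fold or more, 27 of them higher. The 3 widest belong to probe sets with no gene symbol in the annotation. The widest read 4.52, 4.16 and 4.36 in wild type and 11.10, 8.56 and 5.61 in transgenic replicates 1, 2 and 3, above wild type on each array but far apart among themselves (4.08 ± 1.27, adjusted p = 0.167). The unstimulated transgenic arrays spread alike, at 11.99, 9.45 and 6.42 for replicates 1, 2 and 3, against 4.91, 5.20 and 5.22 in wild type. The other 2 probe sets gave 3.74 ± 1.39 (adjusted p = 0.282) and 2.94 ± 1.11 (adjusted p = 0.294) with the same order of arrays in each state.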

How the data were processed

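Total RNA of 12 samples, 4 µg each, was hybridised to single-channel Affymetrix Mouse Genome arrays, per the labels. The authors deposited 1 log2 value per probe set; RMA and affy are named, without a version or build, by the submitters' processing notes. RMA corrects background and compresses dim signals, so folds of genes near the dim end may be too small, and the values carry no detection call. No source used here says if both states were normalized together.

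After removal of 64 controls from 45101 probe sets, 45037 entered the test. The platform annotation, which can be old, named a single gene for 34945, several for 932 and none for 9160; 34741 matched by Entrez identifier. The brightest single-gene probe set over 12 arrays stood for each of 18193 genes. Groups were compared with limma 3.58.1 (R 4.3.3), in an unblocked model of the 12 arrays that gave each group its own coefficient, with a 2-sided moderated test (8 residual and 4.71 prior degrees of freedom) and Benjamini-Hochberg adjustment over all 45037 probe sets; an adjusted p under 0.05 was called. Errors are standard errors of the fit. With 3 arrays a group, their number limits the precision. On simulated data for this comparison the procedure recovered 47.8% of changes of 0.5, 92.5% of changes of 1 and 97% of changes of 2 (log2) among 45037 probe sets.

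Deviations from the group means correlated between same-numbered stimulated arrays of the genotypes (r = 0.33, 0.101 and 0.178 for replicates 1, 2 and 3) and less between others (−0.26 to 0.057). The numbers come from the sample titles, which name no pairing; the sex-linked genes follow them too. The block is an alternative.

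The text names Kcnip3; the 15 largest rises and 15 largest falls called without overlap of the groups; up to 4 called genes of each of 36 lists with the largest change; the genes with probe sets called both ways, or all above the median called 1 way; and the 8 largest interactions in each direction. Clones and predicted genes were skipped, apart from 1500011B03Rik. Other list members and the genes of neighbouring runs were named after their values were seen. The comparison, the members and the lists were chosen with earlier results of these data known. Promoter windows are RefSeq's (GRCm38.p6). Other settings tried were a replicate block, quantile normalization, median subtraction, a filter on dim probe sets, a trended robust prior, the 6 stimulated arrays alone, other ways to represent a gene, and leaving out each array.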

Additional observations from a re-analysis of the deposited data

Results flagged for a closer look

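The genotype difference itself differed between activated and unstimulated cells by the interaction test (limma, adjusted p under 0.05) for 38 named genes. The values are log2 differences, stimulated minus unstimulated, of the transgenic minus wild type difference.

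Among the large rises it was 1.28 for Ctse, 1.5 for Ifi44l, 1.91 for Saa3, 0.87 for Trim30d, 1.12 for Pf4 and 1.17 for Marco. It was −2.88 for S100a8, whose rise was wider before stimulation, as were those of S100a9 (−3.73) and Lcn2 (−2.49). For Ngp (−3.72), Camp (−3.41) and Ltf (−3.06) the genotypes differed before and no call was made after, where these genes were dim in both genotypes.

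Among the large falls it was −3.72 for Ccnb1ip1, −3.56 for Lad1, −2.11 for D13Ertd608e, −3.01 for Gbp2b, −1.82 for Gbp2 and −1.58 for Rasgrp2, all wider in activated cells. For Slc15a2 (2.01), Ifi213 (1.74) and Tlr1 (0.80) the fall was narrower there. In transgenic cells Slc15a2 (means of 5.38 before and 4.74 after) and Ifi213 (5.44 and 4.80) lay below the array medians in both states. A wider fall of these genes in activated cells could thus hardly have shown. Ccnb1ip1, Lad1, Gbp2b and D13Ertd608e (wild type and transgenic means of 5.39 and 4.37) were dim in both genotypes before stimulation. The interaction of Slc15a2 was not called without transgenic unstimulated replicate 2 or wild type stimulated replicate 1 or 2 (1.87 to 1.95).

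Regulators of quiescence and signalling gave −1.03 for Klf2, −1.01 for Klf3, −0.52 for Klf16, −1.29 for Dusp2 and −0.87 for Mllt3. The receptors Fcrla and Fcgr2b gave 1.19 and 0.87, the chemokines Ccl22 and Ccl3 −0.84 and 0.96, and the marginal zone marker Asb2 −0.67. A further Fcrla probe set had no called interaction (0.53, adjusted p = 0.192). For Polr1b it was −0.80 and for Wdr12 −0.51, both of ribosome synthesis. Mdm1 (2.84), Plk2 (2.31), Crisp3 (2.13), Col6a4 (1.88) and the chemokine receptor Cxcr4 (1.82) were lower in transgenic cells before stimulation and not called after it. After it Plk2, Crisp3 and Col6a4 were dim in both genotypes.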

How the results depend on the processing

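No named call changed direction. Of 86 named called genes 55 kept their call in every setting, the filter on dim probe sets reaching 82 of them, and the same number kept it without each of the 12 arrays; over all settings 176 of 1630 values were no longer past the threshold. With the replicate block 1000 probe sets were called in place of 839 and 778 were shared; at the brightest probe set of the named genes it ended the call of Usp18 alone, and among their other called probe sets that of 1 of Mllt3 and 1 of Myef2. Quantile normalization gave 683, median subtraction 803 (40.6% higher in place of 46.6%), the trended robust prior 854, the 6 stimulated arrays alone 861 and, with the block, 966. Leaving out 1 array gave 452 to 1272 for the stimulated comparison, 2174 to 7518 for the unstimulated one (4256), 388 to 1418 for the interaction (710), 223 to 638 for the 425 genes and 42 to 84 for the 68 called list members, the lowest of these without wild type stimulated replicate 3. The unstimulated count was lowest without transgenic and highest without wild type unstimulated replicate 3. Without the third array of all 4 groups, an alternative chosen after seeing the data, the counts were 327 probe sets, 222 interactions, 164 genes and 35 list members. Among probe sets above the median 441 interactions were called. The mean of all probe sets of a gene gave 609 genes in place of 425. The 6 stimulated arrays with the block gave 7 myeloid in place of 4 and 5 quiescence genes in place of 3. The causes were not tested. Dim probe sets limit what can be called: 0.457% of those below the median probe set were called and 3.27% of those above.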
